A study of Culex quinquefasciatus and Culex pipiens molestus with 2 samples.

Results

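The salivary gene models of the house mosquito comprised 34 of the 16198 transcript models listed in either deposited table. They were chosen by the words of their product descriptions: salivary, D7, apyrase, aegyptin, antiplatelet, 5'-nucleotidase or adenosine deaminase. Those words matched 39 models, and 5 were left out by the same rule, 2 glutathione S-transferases that carry D7 in their name and 3 deaminases specific to tRNA. The members fell into 3 D7 models, 11 nucleotide-cleaving enzymes and 20 other salivary-named models. No member was chosen for its level. The study sequenced polyadenylated RNA of whole females of Culex pipiens molestus and of Culex pipiens quinquefasciatus, each from a laboratory strain. RNA of 30 females of each taxon was pooled, and 1 non-directional library per taxon was sequenced. No treatment is named, and the sources used here give no age, feeding state or strain origin for the females. As background, molestus is a form found underground and in towns whose females can lay a first batch of eggs without blood, whereas quinquefasciatus, the southern house mosquito, depends on a blood meal for its eggs.

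Each library held about as many uniquely assigned reads as the other, 9.79 M (mega) for molestus and 10.17 M for quinquefasciatus, over 14834 and 15438 listed models. Levels are given in RPKM (reads per kilobase of model length for each M reads assigned), and the median listed model stood at 8.81 and 7.34 RPKM. The tables do not list models without reads, and an unlisted model was taken as 0 reads. For a model of 1 kb, 3 reads corresponded to 0.307 RPKM in the molestus and 0.295 RPKM in the quinquefasciatus library. With 1 library per taxon, taxon and library cannot be told apart, no difference has a replicate check, and p-values were not calculated. Intervals are exact at the 95% level for independent reads and cover counting error only. PCR copies of a molecule were not told apart, and where reads are not independent the intervals are too narrow. The tables were tied to the taxa by their abbreviations alone, Cxm for molestus and Cxq for quinquefasciatus. In bulk RNA of whole females, fewer salivary gland cells and less RNA per cell cannot be told apart. The models are, as background, those of the Culex quinquefasciatus genome project. How mismatches of molestus reads were treated is not stated, and their part in low molestus counts was not tested.

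Mosquito saliva keeps blood flowing while the female probes. D7 proteins are abundant secreted relatives of the odorant-binding proteins that bind small host signals of vasoconstriction and inflammation, such as biogenic amines and lipid mediators, and a long D7 of Culex quinquefasciatus is known to bind adenine nucleotides. Apyrases remove phosphates from ATP and ADP, the latter a signal for platelets, and adenosine deaminase converts adenosine to inosine. The group called nucleotide-cleaving enzymes here takes in the adenosine deaminases, which do not themselves cleave a nucleotide. Aegyptin, first described from Aedes aegypti as the 30 kDa allergen Aed a 3, binds collagen and so keeps platelets from sticking. Cytosolic nucleotidases and some adenosine deaminases also serve housekeeping purine metabolism in many tissues.

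Most salivary members with a measurable level were higher in the quinquefasciatus library, while the 2 most abundant differed by less than 1.2-fold. Of the 34 members, 17 were listed in both libraries, 14 in the quinquefasciatus library alone and 3 in the molestus library alone. Across all models, 8.42% were listed in the quinquefasciatus library alone and 4.69% in the molestus library alone. The 14 members had 3 to 31 quinquefasciatus reads each, and among all models in that range, whose limits were set by these members, 16.0% were at 0 in the molestus library. Of the 18 members in the range, 14 were at 0. All 14 lie inside the range by construction, so setting them against the 16.0% is no test of the members. A level of at least 1 RPKM in at least 1 library was reached by 22 members, which were then compared by log2 ratios of molestus to quinquefasciatus levels, each with a pseudocount of 1 RPKM. Of these 22, 12 were higher by 2-fold or more in quinquefasciatus and 1 in molestus, and 9 lay within 2-fold. Of all 12789 models that passed the same filter, 18.0% were higher by 2-fold or more in quinquefasciatus and 22.8% in molestus. The median log2 ratio was -1.11 over the 22 members (interval over members -2.19 to 0.10) and 0.18 over all compared models. A model with 0 reads in one library that passed the filter through the other was past 2-fold by construction. That fixed 5 of the 12 calls towards quinquefasciatus and the 1 call towards molestus. Of the 16 compared members with reads in both libraries, 7 were higher by 2-fold or more in quinquefasciatus, 0 in molestus and 9 within 2-fold, and of all 12395 such models 16.5% were higher in quinquefasciatus and 22.5% in molestus. The median describes the members that passed the filter and not all 34.

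**Figure D1:**
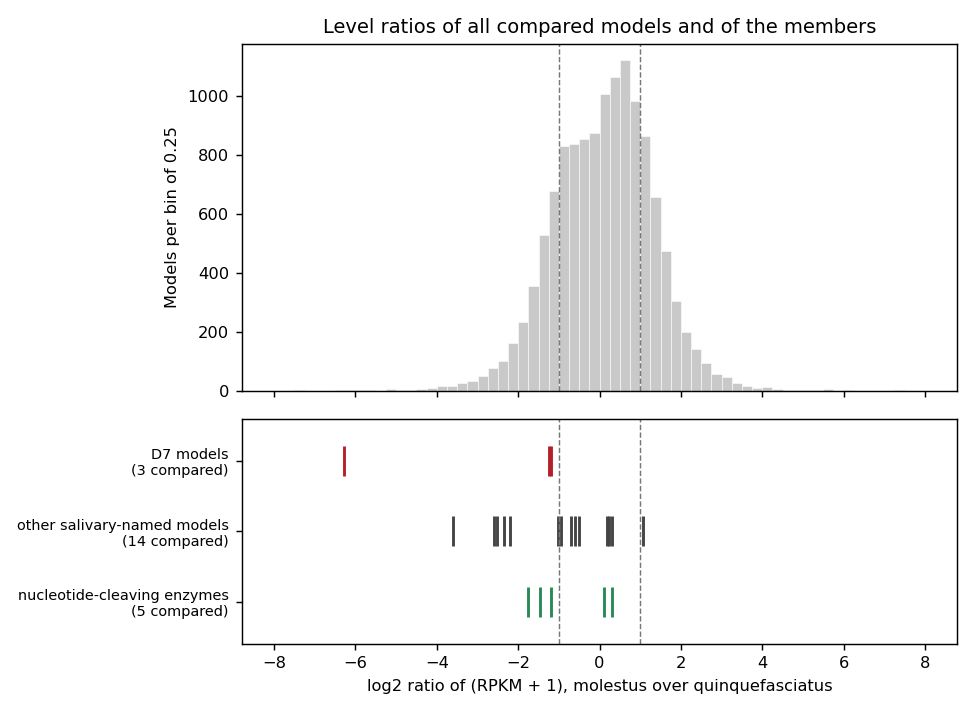
Upper panel: the number of compared models in each bin of the log2 ratio of molestus to quinquefasciatus, with 1 RPKM added to each. Lower panel: each vertical mark is 1 compared member, in rows for the 3 D7 models, 14 other salivary-named models and 5 nucleotide-cleaving enzymes, and dashed lines stand at 2-fold in either direction. A D7 model lies furthest to the left at -6.28, and 1 member lies past 2-fold on the right, at 1.08.

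The summed reads did not show this pattern. All 34 members together held 0.0907% (0.0889 to 0.0927) of the molestus reads and 0.0974% (0.0955 to 0.0994) of the quinquefasciatus reads. The 3 models named 14.5 kDa salivary protein made up 87.5% (86.8 to 88.2) of the molestus and 70.7% (69.8 to 71.6) of the quinquefasciatus reads of the members. Without them, in a comparison added after the data were seen, the other 31 members held 1107 molestus and 2900 quinquefasciatus reads. Their share of the library was 2.52-fold higher in quinquefasciatus (2.35 to 2.71). The D7 model CPIJ014551 alone held 2 of these molestus and 959 of these quinquefasciatus reads, so the fold leans on 1 model. The share was 1.46-fold higher for the nucleotide-cleaving enzymes and 3.46-fold higher for the remaining salivary-named models. The D7 models supplied 0.0225% (0.0027 to 0.0813) of the members' reads in molestus and 9.85% (9.27 to 10.5) in quinquefasciatus. The nucleotide-cleaving enzymes supplied 11.1% (10.5 to 11.8) and 15.2% (14.5 to 15.9). The remaining salivary-named models supplied 1.32% (1.09 to 1.58) and 4.25% (3.86 to 4.67).

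**Figure D2:**
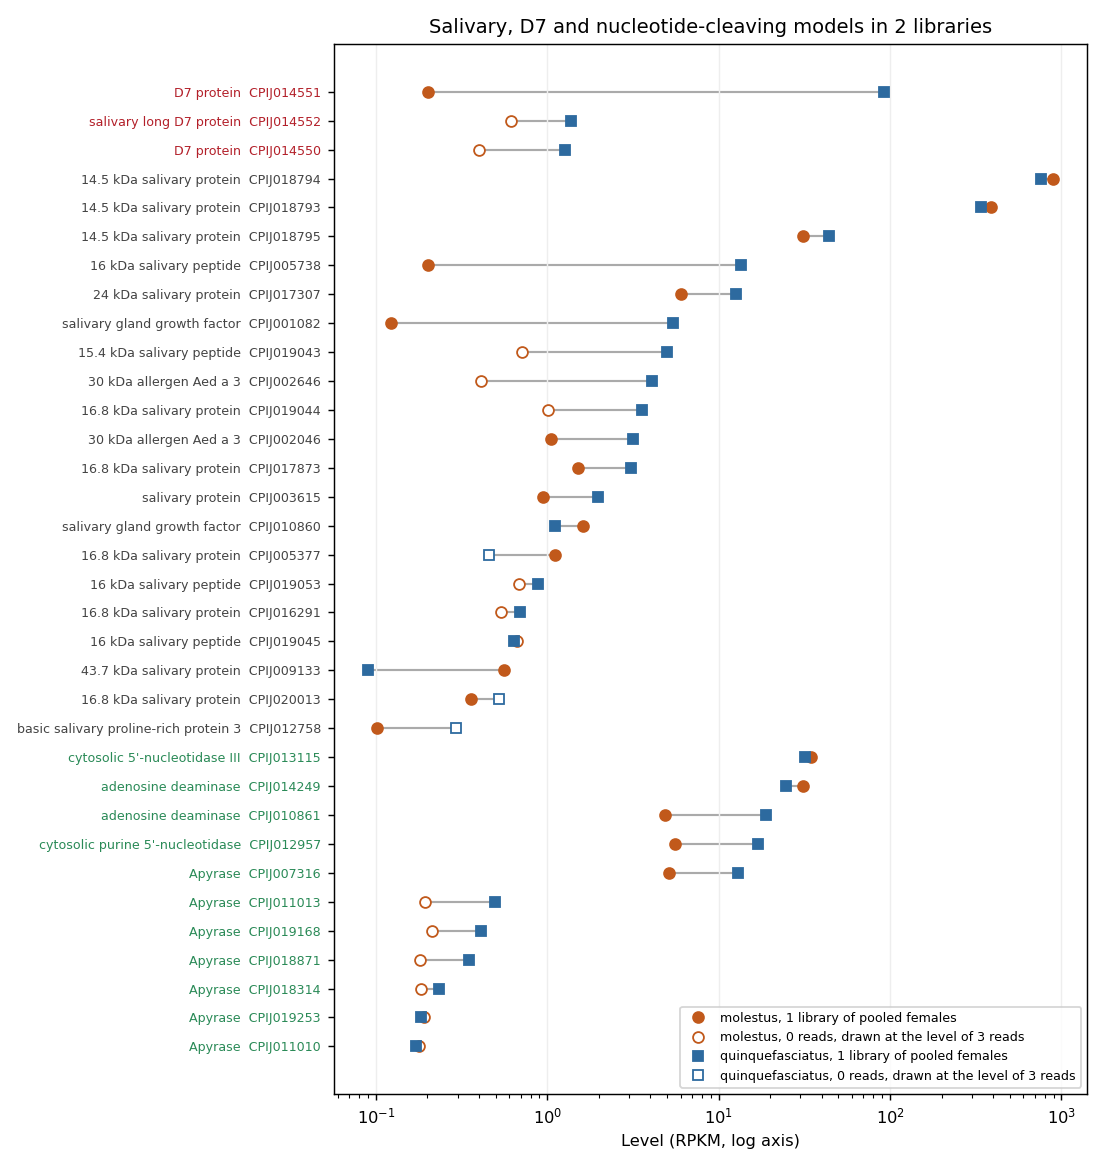
Level of each of the 34 members in RPKM on a log axis, with circles for the molestus and squares for the quinquefasciatus library, joined by a line per model, and 1 pooled library per taxon. Open symbols are models at 0 reads, drawn at the level that 3 reads would give. Label colours mark D7 models (red), other salivary-named models (dark grey) and nucleotide-cleaving enzymes (green), and the widest gap is that of the D7 model CPIJ014551, at 0.200 against 92.5 RPKM.

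All 3 D7 models were past 2-fold towards quinquefasciatus on the log2(RPKM + 1) scale, but for CPIJ014550 and CPIJ014552, with 0 molestus reads, the filter fixed that call, and only CPIJ014551 had more than 10 reads. CPIJ014551, described as a D7 protein precursor with a model of 1020 bases, had 2 reads in the molestus library, or 0.200 RPKM (0.0243 to 0.724). In the quinquefasciatus library it had 959 reads, or 92.5 RPKM (86.7 to 98.5), which placed it at rank 930 of the 15438 listed models there. The ratio of the levels was 462 (127 to 3817), and 0.0235% of all compared models had a log2 ratio as low or lower. The quinquefasciatus reads covered 1010 of the 1020 bases; how deeply they lay along the model is not recorded. The 2 molestus reads covered 180 bases, the length of a pair of reads of 90 bases that do not overlap.

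The other D7 models were near the limit of detection in both libraries. CPIJ014550, also a D7 precursor, had 0 molestus and 10 quinquefasciatus reads, at 1.28 RPKM. It was 3.21-fold higher in quinquefasciatus against a floor of 3 reads per library. CPIJ014552, the salivary long D7 protein, had 0 and 7 reads, at 1.37 RPKM, and was 2.25-fold higher against the same floor. Such ratios leave out the counting error of the higher library and are not confidence limits. For CPIJ014552 the RPKM intervals of molestus (0 to 0.752) and quinquefasciatus (0.553 to 2.83) overlapped. With a floor of 10 reads neither of the 2 ratios pointed to quinquefasciatus any more. The 7 reads of CPIJ014552 covered 189 of 501 bases, 0.503 of the length expected if reads fell evenly along the model, where the median model with 5 to 100 quinquefasciatus reads reached 0.784. Long D7 proteins carry a pair of odorant-binding-like domains and short ones a lone domain, but the descriptions name a form only for CPIJ014552. The 3 D7 models bear consecutive identifiers. Paralogs that share reads lose them in a table of uniquely assigned reads, so the division of reads among the D7 models is uncertain.

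Of the 14.5 kDa salivary proteins, small proteins for which the tables give no function, CPIJ018794 and CPIJ018793 were the most abundant members in both libraries. CPIJ018794 stood at 896 RPKM (871 to 920) in molestus and 756 RPKM (735 to 779) in quinquefasciatus, ranks 139 and 162 among all models. It was 1.18-fold higher in molestus (1.14 to 1.23). CPIJ018793 stood at 389 RPKM (373 to 405) and 341 RPKM (327 to 356), 1.14-fold higher in molestus (1.07 to 1.21). The direction of both is that of the deposited scale: after rescaling by the median ratio of all models, a shift of -0.30 on the log2 scale, their log2 ratios were -0.05 and -0.11. CPIJ018795, the least abundant of the 3, stood at 30.9 RPKM (26.4 to 35.9) and 44.2 RPKM (38.9 to 49.98), 1.43-fold higher in quinquefasciatus (1.17 to 1.75). No member of this family was past 2-fold in either direction.

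Shares within the family do not depend on the scaling. CPIJ018793 took 30.3% (29.3 to 31.3) of the family's 7775 molestus reads and 30.7% (29.6 to 31.7) of its 7004 quinquefasciatus reads, and these intervals overlap. CPIJ018794 took 67.5% (66.5 to 68.6) and 65.8% (64.6 to 66.9), which also overlap narrowly. Overlap of such intervals does not show that the shares are equal. CPIJ018795 took 2.17% (1.86 to 2.52) in molestus and 3.58% (3.16 to 4.05) in quinquefasciatus, intervals that lie apart. The 3 models bear consecutive identifiers, and how far their sequences are alike was not examined, so reads that match more than 1 of them may be missing from all 3 values.

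**Figure D3:**
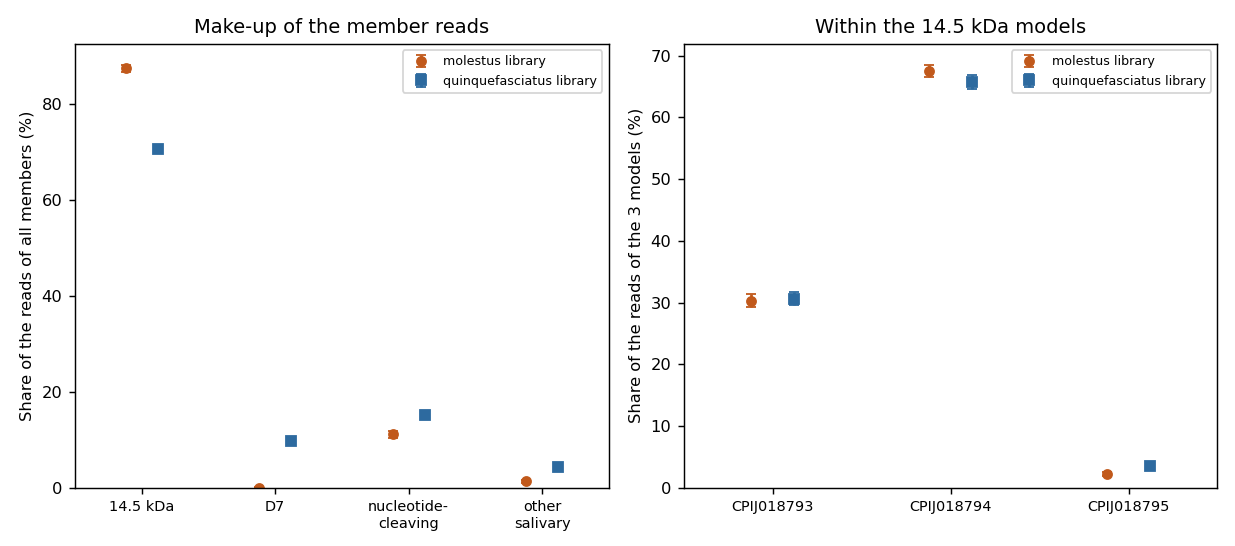
Left: share of the reads of all members held by the 14.5 kDa models, the D7 models, the nucleotide-cleaving enzymes and the remaining salivary-named models, in each library. Right: share of each 14.5 kDa model in the reads of that family. Points are single libraries and bars are exact 95% intervals for counting error; the family's share is 87.5% in molestus and 70.7% in quinquefasciatus, and on the right the intervals lie apart for CPIJ018795, at 2.17% and 3.58%.

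The length covered by reads also differed between the libraries for this family. In the molestus library 598 of the 599 bases of CPIJ018794, 561 of the 619 bases of CPIJ018793 and 554 of the 559 bases of CPIJ018795 had reads. In the quinquefasciatus library 490, 484 and 500 bases had reads, so that 109, 135 and 59 bases had none in spite of 4606, 2147 and 251 reads. For CPIJ018794 the covered share was 99.83% in molestus and 81.80% in quinquefasciatus, a gap of 18.0 percentage points, and for CPIJ018793 it was 90.63% and 78.19%, a gap of 12.4 points. Among the 1075 models with at least 1000 reads in both libraries the median gap was 0, and 4.47% had a gap of more than 10 points towards molestus and 1.40% towards quinquefasciatus. Of the 615 models with at least 2000 quinquefasciatus reads, 9.76% were covered over less than 85% of their length. The lengths of the 3 models are not multiples of 3, unlike those of 28 of the 34 members and 88.6% and 88.9% of the listed models of the libraries.

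**Figure D4:**
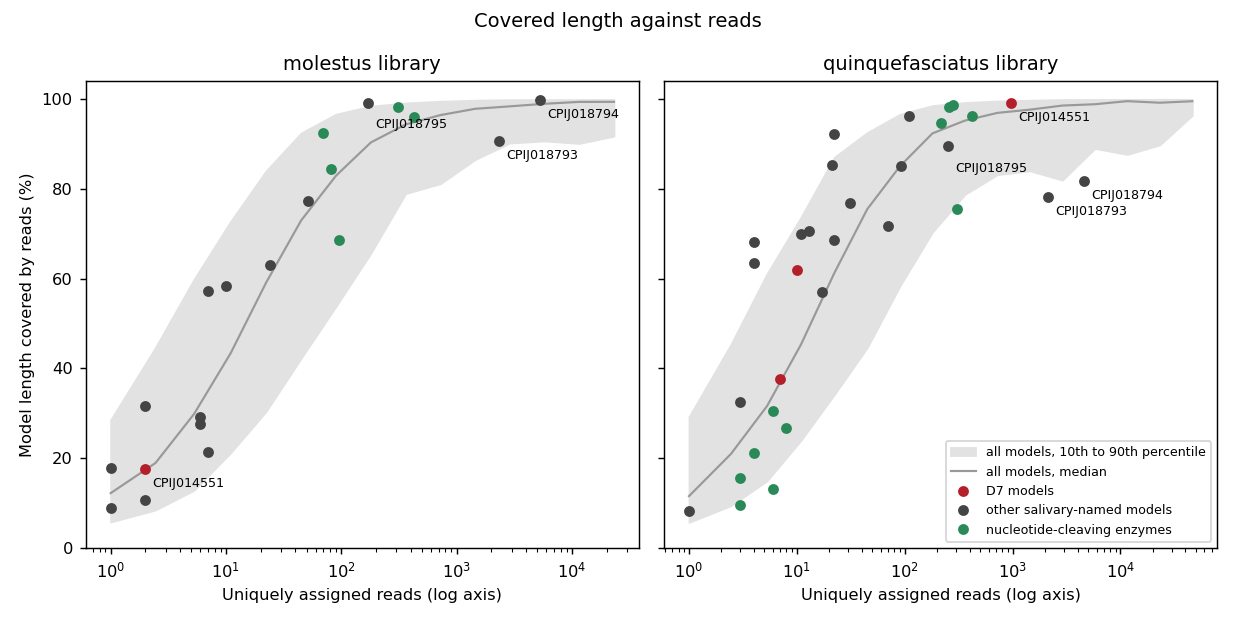
Percent of each model's length covered by reads against its uniquely assigned reads (log axis), in the molestus (left) and quinquefasciatus library (right). Points are members with reads, the line is the median and the grey band the 10th to 90th percentile of all models in bins that double in reads. In the quinquefasciatus panel CPIJ018793 and CPIJ018794 lie below the band, at 78.19% and 81.80%, and in the molestus panel they lie at 90.63% and 99.83%.

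The small salivary peptides and proteins named 15.4, 16 or 16.8 kDa were past 2-fold towards quinquefasciatus in 3 of the 5 models that could be compared and past 2-fold towards molestus in 1, against 18.0% and 22.8% of all compared models. All but the call of CPIJ005738 were fixed by the filter, since those models had 0 reads in one library. Of the 9 such models, 5 were listed in quinquefasciatus alone and 2 in molestus alone, against 8.42% and 4.69% of all models. Most of the 9 had few reads, and of all models with 3 to 31 quinquefasciatus reads 16.0% were at 0 in molestus. Together the 9 models had 20 molestus and 135 quinquefasciatus reads, a 6.50-fold higher share in quinquefasciatus (4.05 to 11.0). The most abundant, the 16 kDa peptide CPIJ005738, had 1 molestus read (0.202 RPKM) and 70 quinquefasciatus reads (13.6 RPKM), a ratio of 67.4 (11.7 to 2699). It supplied 70 of the 135 reads, and no other model of the family had more than 22 in either library. The following models were named after their values were seen. The 15.4 kDa peptide CPIJ019043 had 0 and 22 reads and was 7.06-fold higher in quinquefasciatus against the floor of 3 reads. The 16.8 kDa protein CPIJ019044 had 0 and 11 reads and was 3.53-fold higher against that floor. The identifiers of these 2 models are consecutive. The 16.8 kDa protein CPIJ017873 had 10 and 21 reads, a ratio of 2.02 whose interval included 1 (0.911 to 4.81). Opposite to these, the 16.8 kDa protein CPIJ005377 had 7 molestus and 0 quinquefasciatus reads. It was 2.42-fold higher in molestus against the floor of 3 reads, and was the member past 2-fold in that direction. Its RPKM intervals in molestus (0.446 to 2.28) and quinquefasciatus (0 to 0.563) overlapped. With fewer than 10 reads, its ratio would not survive a floor of 10 reads. The remaining 4 models had between 2 and 4 reads in the library that listed them.

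Both models of the 30 kDa allergen, the aegyptin family of collagen-binding platelet inhibitors, were higher in the quinquefasciatus library at low levels. They too were named after their values were seen, since neither reached 50 reads. CPIJ002646 had 0 molestus and 31 quinquefasciatus reads, at 4.07 RPKM, and was 9.95-fold higher against the floor of 3 reads. CPIJ002046 had 7 and 22 reads, at 1.05 and 3.16 RPKM, a ratio of 3.03 (1.25 to 8.39). Its 7 molestus reads covered 147 of 684 bases, 0.342 of the even expectation against a median of 0.767 for models with 5 to 100 molestus reads.

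The salivary gland growth factors, related by name to a tsetse salivary protein of the adenosine deaminase-like growth factors, split. CPIJ001082 had 2 molestus reads (0.122 RPKM) and 92 quinquefasciatus reads (5.40 RPKM), a ratio of 44.3 (11.9 to 371). CPIJ010860, named after its values were seen, had 24 and 17 reads, at 1.62 and 1.10 RPKM, and its ratio of 1.47 towards molestus had an interval that included 1 (0.756 to 2.91). Only the interval of CPIJ001082 lay wholly on one side of 1.

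The 24 kDa salivary protein CPIJ017307 had 51 molestus reads (6.07 RPKM) and 110 quinquefasciatus reads (12.6 RPKM). Its ratio of levels was 2.08 (1.48 to 2.95), but with the pseudocount of 1 it stood at -0.94 on the log2 scale and was not counted as 2-fold. The remaining salivary-named models had at most 13 reads in either library and were named after their values were seen. They were a model described only as salivary protein (CPIJ003615), with 6 and 13 reads and a ratio of 2.09 (0.740 to 6.69), a 43.7 kDa protein (CPIJ009133), with 6 and 1 reads, and a basic proline-rich protein named after a vertebrate saliva protein (CPIJ012758), with 1 and 0 reads. For none of these 3 did the counts separate the libraries.

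Of the 7 apyrase models, CPIJ007316 carried most reads and was higher in the quinquefasciatus library. It had 82 molestus reads (5.11 RPKM, 4.06 to 6.34) and 216 quinquefasciatus reads (12.9 RPKM, 11.3 to 14.8), a ratio of 2.54 (1.96 to 3.31). The other 6 apyrase models had 0 molestus reads and between 3 and 8 quinquefasciatus reads each, all under 1 RPKM, and were not compared. Of all models, 8.42% were listed in quinquefasciatus alone. None of the 6 had enough reads for a ratio that a floor of 10 reads would leave standing. One of them, CPIJ019168, named after its values were seen, had 6 reads over 191 of 1440 bases, 0.413 of the even expectation. Together the 7 apyrase models had 82 and 246 reads, a 2.89-fold higher share in quinquefasciatus (2.24 to 3.76). Whether the 6 low models share reads with near-identical copies was not examined, and such reads would be missing from both tables.

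Adenosine deaminases and nucleotidases each had a model that was higher in quinquefasciatus and a model that was about equal. The adenosine deaminase CPIJ010861 had 70 molestus reads (4.88 RPKM, 3.80 to 6.16) and 280 quinquefasciatus reads (18.8 RPKM, 16.6 to 21.1), a ratio of 3.85 (2.95 to 5.08). Its identifier follows that of the growth factor CPIJ010860, which did not differ beyond counting error. The other deaminase, CPIJ014249, stood at 31.0 RPKM (27.6 to 34.6) in molestus and 24.8 RPKM (21.8 to 28.0) in quinquefasciatus, 1.25-fold higher in molestus (1.05 to 1.48), and at a log2 ratio of 0.02 after rescaling by the median ratio. The intervals of the 2 deaminases lay on opposite sides of 1 on the deposited scale.

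Among the nucleotidases, which release phosphate from nucleotides inside the cell, the cytosolic purine 5'-nucleotidase CPIJ012957 had 96 and 304 reads, at 5.53 RPKM (4.48 to 6.76) and 16.9 RPKM (15.0 to 18.9). It was 3.05-fold higher in quinquefasciatus (2.42 to 3.88). Its reads left 555 of 1773 bases uncovered in molestus and 434 in quinquefasciatus. The cytosolic 5'-nucleotidase III CPIJ013115 stood at 34.4 RPKM (31.2 to 37.8) and 32.0 RPKM (29.0 to 35.2), and its ratio of 1.08 towards molestus had an interval that included 1 (0.938 to 1.23). Over the 5 compared nucleotide-cleaving enzymes, 3 were at least 2-fold higher in quinquefasciatus and 2 lay within 2-fold, against 18.0% of all compared models higher by that much in quinquefasciatus. All 5 had reads in both libraries. Their median log2 ratio was -1.19, and it was -0.43 over all 11 enzymes without the filter. As a group the 11 enzymes had 988 molestus and 1503 quinquefasciatus reads, a 1.46-fold higher share in quinquefasciatus (1.35 to 1.59).

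Other families that occur in saliva, and in other tissues as well, were also higher in the quinquefasciatus library for the larger part. They comprised 35 models named venom allergen, lysozyme, nucleoside hydrolase, hyaluronidase and similar. Of the 25 compared, 17 were at least 2-fold higher in quinquefasciatus and 1 in molestus, with a median log2 ratio of -1.32. Among all compared models, 18.0% and 22.8% were past 2-fold in those directions. The venom allergens (antigen 5 family of secreted proteins) stood at a median of -1.58 across 15 models, of which 10 were at least 2-fold higher in quinquefasciatus and 0 in molestus. The most abundant of them, CPIJ015029, stood at 73.9 and 372 RPKM, 5.03-fold higher in quinquefasciatus (4.60 to 5.51). The lysozymes, which cleave bacterial cell walls, had 5 of 6 models at least 2-fold higher in quinquefasciatus and 1 in molestus. The 3 hyaluronidases, enzymes that loosen the skin matrix for other saliva components, had 0 molestus reads and a summed level of 0.939 RPKM in quinquefasciatus. That level rested on 6 reads, between 1 and 3 per model. All 3 were at or under the floor of 3 reads and were not compared, and 8.42% of all models were listed in quinquefasciatus alone. The 4 nucleoside hydrolases, which split inosine and other nucleosides, summed to 8.30 and 16.7 RPKM.

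The genes of purine handling outside the members showed no single direction. Of 20 compared models, 4 were at least 2-fold higher in quinquefasciatus and 2 in molestus, against 18.0% and 22.8% of all compared models. Their median log2 ratio was 0.31 (-0.42 to 0.53), close to the 0.18 of all compared models. Their summed reads took a 1.15-fold higher share in quinquefasciatus (1.12 to 1.17), but 1 model held most of them. Nucleoside diphosphate kinase B (CPIJ004571) had 12849 of the 19115 molestus and 17342 of the 22759 quinquefasciatus reads. The direction of the sum is therefore not that of the list as a whole. Adenylosuccinate synthetase (CPIJ003725), a step in making AMP, was 2.92-fold higher in molestus (2.57 to 3.33), and xanthine dehydrogenase CPIJ013921, a step in making uric acid, was 6.28-fold higher in quinquefasciatus (3.95 to 10.5). The odorant-binding proteins, the superfamily to which D7 proteins belong, had 13 of 16 compared models at least 2-fold higher in quinquefasciatus and 0 in molestus, with a median of -1.46. The largest of their ratios at a minimum of 50 reads was 6.78 (4.48 to 10.7) for CPIJ001365, against 462 for the D7 model CPIJ014551. Wider gaps in the same direction occurred outside the odorant-binding proteins. The trypsin CPIJ004640 reached 139 on 6 molestus reads, with limits of 63.6 and 380. With 1 molestus read each, the venom allergen CPIJ018300 reached 120 (limits 21.2 and 4791) and the lysozyme CPIJ009359 reached 84.7 (limits 14.8 and 3384). These intervals overlap that of CPIJ014551.

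Markers of other tissues moved between the libraries as well, and their part in the salivary values was not tested. Summed levels were higher in quinquefasciatus for the eye list (14290 against 29287 RPKM over 21 models), the midgut list of trypsins and chymotrypsins (2381 against 14341 RPKM over 96 models) and the muscle list (2394 against 4777 RPKM over 24 models). They were also higher there for the antennal list (315 against 923 RPKM over 53 models) and the fat body list (226 against 379 RPKM over 26 models). The ovary and yolk list was higher in molestus, at 691 against 308 RPKM over 17 models. Its most abundant model, the vitellogenic carboxypeptidase CPIJ008608, fell from 371 RPKM in molestus to 146 in quinquefasciatus. The vitellogenins CPIJ002028 and CPIJ009271 went the opposite way, from 1.26 and 0.953 RPKM in molestus up to 2.06 and 2.26. Chorion peroxidases split, with CPIJ001764 rising from 25.2 to 66.3 RPKM and CPIJ007711 falling from 78.8 to 26.7. Past 2-fold towards quinquefasciatus were 7 of 18 compared eye models, 33 of 59 midgut and 13 of 23 muscle models. So were 13 of 18 antennal, 2 of 11 fat body and 1 of 11 ovary and yolk models. Towards molestus the counts were 3, 3, 2, 1, 0 and 5, in the same order. Among all compared models the shares were 18.0% towards quinquefasciatus and 22.8% towards molestus, and the fat body share towards quinquefasciatus, 18.2%, was near the former. The median log2 ratios of these lists over their compared models were -0.94 for eye, -1.19 for midgut, -1.04 for muscle, -1.42 for antenna, -0.68 for fat body and 0.41 for ovary and yolk. The lists are text patterns and take in some related genes, such as myosin light chain kinases in the muscle list. They also overlap and are not separate comparisons. The antennal list takes in the models named odorant-binding that were already counted above, and 1 of these, CPIJ017326, stood at 210 and 632 RPKM. The odorant-binding proteins summed to 296 and 910 RPKM, so the antennal sums describe them and hardly the odorant receptors. The odorant receptor CPIJ004155 went the other way, at 16.8 RPKM in molestus and 6.89 RPKM in quinquefasciatus. Models named vitellogenin are in both the fat body list and the ovary and yolk list. The median of the salivary members, -1.11, lay within the range of the lists that were higher in quinquefasciatus, and nothing particular to the salivary gland is drawn from it.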

How the data were processed

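Total RNA of 30 females per taxon was extracted with TRIzol, pooled and made into 1 poly(A)-selected, non-directional library each, per the labels' protocols. For each transcript model the authors deposited a count of reads assigned uniquely to it, and these counts added up to the library total that each file header gives. The deposited RPKM values equalled, up to rounding, those recomputed from count, length and total. Also deposited is the percent of a model's length with reads on it. The sources used here do not give the aligner, counting tool, filters or release of the models. The CPIJ identifiers are, as background, those of the Culex quinquefasciatus genome project, and how mismatches of molestus reads were treated is not stated either. Each table was given to the taxon that its abbreviation matches.

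The members and lists were chosen with earlier results of these data known. The tables were joined on the model identifier, and an unlisted model was set to 0 reads. Levels were compared as log2(RPKM + 1) ratios over models that reached 1 RPKM in either library, which understates the ratio of low models. Folds of single models are ratios of RPKM without a pseudocount, with exact conditional binomial (Clopper-Pearson) intervals, levels have exact Poisson intervals and shares exact Clopper-Pearson intervals. The interval of a median is the exact order-statistic interval over its members. A model at 0 reads has a ratio against 3 reads, which leaves out the counting error of the other library and is not a confidence limit. Named were all D7 models and the members with at least 50 reads in the higher library; others named are said to be so. No count model was run, as it needs replicates. Alternatives were pseudocounts of 0.1 and 10, no filter, a 10 RPKM filter, rescaling by the median ratio or by TMM factors (trimmed mean of M-values, from edgeR 4.0.16 in R 4.3.3), a 4-fold threshold and other floors. The procedure was tested on simulated counts. Calculations used scipy 1.17.1, numpy 2.4.6 and pandas 2.3.3 under Python 3.11.15, and plots matplotlib 3.10.9.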

Additional observations from a re-analysis of the deposited data

How the results depend on the processing

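With 1 library per taxon no replicate could be left out. No paired analysis was possible because each taxon has 1 library. The count of 12 members at least 2-fold higher in quinquefasciatus was 2 at a pseudocount of 10, 5 at a minimum of 10 RPKM and 6 at a 4-fold threshold. It was 12 or 13 under no filter, a pseudocount of 0.1 and both rescalings, and 11 without members under 10 reads in both libraries, which, like leaving out the 14.5 kDa models (12), was chosen after seeing the data. The count of 1 member at least 2-fold higher in molestus was 0 at a pseudocount of 10, at a minimum of 10 RPKM, at 4-fold and without members under 10 reads. The median of the D7 models, -1.25, was -0.19 at a pseudocount of 10, -0.70 with models of 0 reads at 3 reads, -3.88 at a pseudocount of 0.1 and -6.28 at a minimum of 10 RPKM, which leaves CPIJ014551 alone. The medians of all members, of the other salivary-named models and of the nucleotide-cleaving enzymes stayed negative under every alternative run, between -0.33 and -1.45. Of the 14 named models, 10 were higher in quinquefasciatus, 13 after rescaling by the median ratio and 12 by TMM factors, a shift of -0.21. By the median ratio CPIJ013115 turned to -0.19, CPIJ018793 to -0.11 and CPIJ018794 to -0.053, and by TMM CPIJ013115 turned to -0.10 and CPIJ018793 to -0.018. With a floor of 10 reads the log2 ratios of CPIJ014550 and CPIJ014552 against that floor were 0.055 and 0.57, on 10 and 7 quinquefasciatus reads. Depth limits the members under 10 reads, for which neither presence nor absence in the other library can be told.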

Other observations

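The listed models with identifiers next to those of the D7 models were looked up after the D7 values were seen. CPIJ014549, described only as a hypothetical protein, had 0 molestus and 48 quinquefasciatus reads, at 8.03 RPKM. Most of the others were near the limit of detection in both libraries. The hypothetical proteins CPIJ014548 and CPIJ014546 had 0 against 6 and 1 against 9 reads, and CPIJ014553, on the other side of the D7 models, had 0 against 1. Tektin-2 (CPIJ014555) had 1 against 0. CPIJ014556, a conserved hypothetical protein 4 identifiers after the last D7 model, had 52 and 95 reads. Where these models lie in the genome was not examined.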
